A study of Rattus norvegicus with 6 samples.

Results

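Transcripts of the circadian clock were followed in rat renal cortex, the outer part of the kidney, in animals given sulfone bis(p-chlorophenyl) and in animals given vehicle. The set holds 10 genes chosen by name, namely Bmal1 (listed as Arntl), Clock, Npas2, Per1, Per2, Per3, Cry1, Nr1d1, Dbp and Tef, out of 12118 genes with a tested probe. A probe belonged to a gene when the RefSeq transcript it is named for carries that gene's symbol, and all 10 genes were matched, by 24 probes. Cortex came from 6 male Sprague-Dawley (Crl:CD(SD)) rats, 5 weeks old at purchase and held on a basal diet under equal periods of light and dark. The treated group was 3 rats dosed at 250 mg/kg per day for 4 weeks with sulfone bis(p-chlorophenyl), in which a sulfone joins a pair of chlorinated phenyl rings, and the vehicle group was 3 rats given corn oil for 4 weeks. Both groups are stated to be biological replicates, and each rat's RNA was hybridised alone to a 1-colour Agilent array. The hour at which tissue was taken is not given in the sources used here.

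The mammalian clock is a loop of transcription that runs once a day in nearly every cell, the kidney included. BMAL1 pairs with CLOCK or NPAS2 and switches on genes that carry E-boxes, among them the Per and Cry genes and Nr1d1, whose proteins then act back on the loop. PER and CRY proteins block the BMAL1 pair, and NR1D1 (REV-ERB alpha) represses Bmal1 and other genes through a site called the RORE. Dbp and Tef encode output factors that bind D-boxes. Transcripts driven by the E-box and those driven by the RORE therefore peak at nearly opposite times of day in rodent peripheral tissues, with Cry1 peaking later than the Per genes.

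Promoter windows show where the letters of these sites stand in the rat genes. RefSeq windows of build GRCr8, from 250 bases before to 50 bases after a gene's start, were found for 9 of the 10 genes (11 windows). The RORE was searched by name, the E-box as CACGTG and the D-box as TTANGTAA, on both strands, and no matches overlapped. Of 33469 rat windows, 0.356% held a RORE, 6.42% an E-box and 2.24% a D-box. A match was found for 4 of the 10 genes, and their windows are given here because Bmal1 carries the site of the repressing branch and the other 3 carry those of the activating and output branches. Motifs are in capitals. The RORE of Bmal1 begins 20 bases before the start, at chr1:176766078-176766377 on the plus strand. The E-box of Nr1d1 begins 191 bases before the second of its listed starts, in chr10:84229405-84229704 on the minus strand. The E-box of Tef begins 198 bases before the start, in chr7:115206577-115206876 on the plus strand, and the D-box of Per2 192 bases before it, in chr9:99496944-99497243 on the minus strand. A match of letters is a description of the window and not a site shown to be bound.
Bmal1: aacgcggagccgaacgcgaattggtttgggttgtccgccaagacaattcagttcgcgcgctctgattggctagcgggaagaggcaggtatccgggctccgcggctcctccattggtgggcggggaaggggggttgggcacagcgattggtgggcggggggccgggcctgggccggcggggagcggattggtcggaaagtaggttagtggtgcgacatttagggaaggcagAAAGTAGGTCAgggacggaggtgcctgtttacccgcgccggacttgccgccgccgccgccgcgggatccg
Nr1d1: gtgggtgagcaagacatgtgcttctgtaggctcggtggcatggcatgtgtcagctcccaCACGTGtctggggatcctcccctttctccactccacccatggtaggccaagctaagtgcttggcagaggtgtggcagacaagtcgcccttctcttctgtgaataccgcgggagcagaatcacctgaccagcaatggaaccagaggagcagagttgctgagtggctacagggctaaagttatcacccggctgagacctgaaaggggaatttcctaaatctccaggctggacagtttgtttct
Tef: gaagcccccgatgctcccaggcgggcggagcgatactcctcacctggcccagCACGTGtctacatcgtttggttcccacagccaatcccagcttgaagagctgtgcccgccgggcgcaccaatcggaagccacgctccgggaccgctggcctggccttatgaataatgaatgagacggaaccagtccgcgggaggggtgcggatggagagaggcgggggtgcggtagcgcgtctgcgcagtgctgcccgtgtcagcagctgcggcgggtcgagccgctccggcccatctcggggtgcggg
Per2: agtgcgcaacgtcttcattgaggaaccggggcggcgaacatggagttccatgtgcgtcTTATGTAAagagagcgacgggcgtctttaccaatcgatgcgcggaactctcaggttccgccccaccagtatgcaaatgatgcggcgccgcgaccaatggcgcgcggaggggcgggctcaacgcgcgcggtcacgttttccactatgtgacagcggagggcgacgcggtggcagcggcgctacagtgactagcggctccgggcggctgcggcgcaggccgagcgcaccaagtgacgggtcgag

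Signals are on a log2 scale with each array's 75th percentile set to 0, each gene is represented by its brightest probe, and levels of different genes are not set against each other. All 10 genes were well above background on all 6 arrays, the scanner software's mark of detection. Across arrays, 66.1% to 68.2% of probes were well above background, and the number of arrays, 3 a group, limits the precision. Slide 1 held treated 1 and the 3 vehicle arrays, and slide 2 held treated 2 and 3, so slide 2 holds 1 group only. All 10 cortex markers examined, among them the proximal tubule transporter Slc34a1 and the thick limb protein Umod, were well above background on all arrays. Their summed signal, in multiples of the 75th percentile, was 1243 to 1440 in treated and 1267 to 1362 in vehicle arrays. Endothelial markers summed to 28.6 to 32.6 in treated and 30.6 to 33.1 in vehicle arrays, with 3 of 3 well above background on all arrays. Macrophage markers summed to 2.04 to 2.82 in treated and 2.74 to 3.56 in vehicle arrays, with 3 of 4 well above background on all arrays. The 2 adipocyte markers with a probe summed to 1.99 to 2.19 in treated and 0.943 to 1.63 in vehicle arrays and were well above background on all arrays. Of these, Cidec was higher in every treated than in every vehicle array (log2 fold change 1.86) and Adipoq overlapped (-0.08). Lymphocyte markers were dim, with 1 of 3 well above background on all arrays and sums of 0.0822 to 0.124 in treated and 0.0817 to 0.138 in vehicle arrays. The part of these cell types in the clock values was not tested.

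The clock genes differed widely between rats of the same group, and none was called between treated and vehicle cortex. Nr1d1, Tef, Dbp, Per1 and Clock had higher means in treated rats, and Cry1, Bmal1, Per2, Npas2 and Per3 lower ones. With limma and Benjamini-Hochberg adjustment over all 40643 tested probes, 0 of the 10 genes had an adjusted p under 0.05, where 0.00738% of tested probes did (0.00246% higher in treated, 0.00492% lower). At an unadjusted p under 0.05 there was 1 (Tef), where 20.6% of tested probes passed. The 3 treated and 3 vehicle values did not overlap for Tef (higher in treated) and Per3 (lower in treated, on its brightest probe only). That is 2 of 10 genes, against 28.4% of all tested probes (11.5% higher in treated, 17.0% lower), so the share of clock genes whose groups lay apart was no larger than that of the array. In a bulk sample, a change in the cells that carry a transcript and a change in transcript per cell cannot be told apart.

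**Figure D1:**
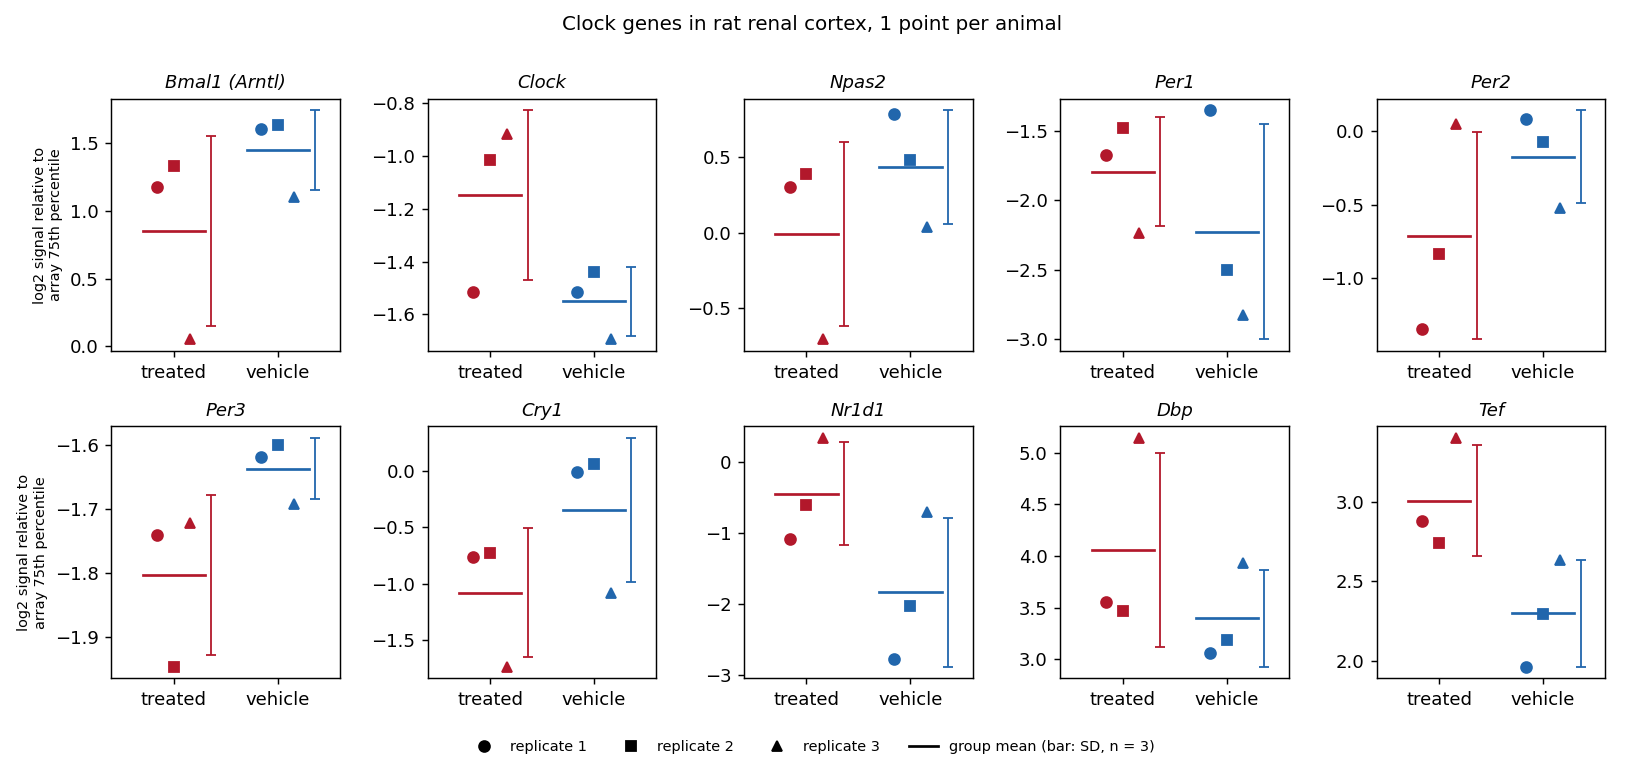
Log2 signal relative to the array 75th percentile (vertical axis) of each clock gene in 3 treated and 3 vehicle rats, 1 point per animal with the symbol giving the replicate number, the line the group mean and the bar the SD (n = 3). The points of both groups overlap in every panel except Tef and Per3, and replicate 3 lies at the same end of both groups for Bmal1, Npas2, Per1, Cry1, Nr1d1, Dbp and Tef.

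Among the activators of the loop, Bmal1 and Npas2 were lowest in the same rats. Bmal1, the obligate partner of the activating pair, had log2 signals of 1.18, 1.33 and 0.05 in treated 1, 2 and 3, against 1.60, 1.63 and 1.11 in vehicle 1, 2 and 3. Treated 3 stood apart at the low end, and vehicle 3 lay below treated 1 and 2, so the groups overlapped. Bmal1 averaged 0.85 ± 0.70 in treated and 1.45 ± 0.30 in vehicle arrays (SD, n = 3 each), which differ by -0.59 (SE 0.36, limma adjusted p = 0.387). Without treated 3 it was -0.19. The second Bmal1 probe gave -0.66 with treated 3 and vehicle 3 again the lowest of their groups.

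Npas2, which can stand in for CLOCK as the partner of BMAL1, had 0.30, 0.39 and -0.71 in treated 1, 2 and 3, against 0.78, 0.48 and 0.04 in vehicle 1, 2 and 3. As for Bmal1, the third replicate was the lowest of each group and the groups overlapped. Its log2 fold change was -0.44 (SE 0.34, limma adjusted p = 0.490), -0.27 without vehicle 1 and -0.09 without treated 3. The other 2 probes gave -0.28 and -0.36, with treated 3 the lowest of all 6 arrays on each, and on the first of them the groups did not overlap.

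Clock, the other partner of BMAL1, behaved differently from both. It had -1.52, -1.01 and -0.92 in treated 1, 2 and 3, against -1.52, -1.44 and -1.69 in vehicle 1, 2 and 3. Treated 2 and 3 were above every vehicle array, whereas treated 1 lay between vehicle values. Clock's log2 fold change was 0.40 (SE 0.18, limma adjusted p = 0.262), and the other 2 Clock probes gave 0.35 and 0.06. Within slide 1, that is treated 1 against the 3 vehicle arrays, it was 0.03. Without treated 1, which leaves the treated arrays of slide 2 only, it was 0.58 with a limma adjusted p of 0.035. That fit called 1469 probes higher and 2838 lower, of 40643 tested.

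The repressors did not move as a block. Per1, which is induced by glucocorticoid hormone as well as by the clock, had -1.67, -1.48 and -2.24 in treated 1, 2 and 3, against -1.36, -2.50 and -2.83 in vehicle 1, 2 and 3. Vehicle 1 held the highest value of all 6 arrays and vehicle 3 the lowest, so the vehicle rats spanned the treated ones. Per1's log2 fold change was 0.43 (SE 0.41, limma adjusted p = 0.576), which was 0.87 without vehicle 1, 0.13 without vehicle 3, 0.65 without treated 3 and 0.27 without treated 2. Its dimmer probe gave 0.03.

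Of 6 glucocorticoid-responsive genes, 5 were well above background on all 6 arrays. Among those 5, Fkbp5 and Klf9 were higher in every treated than in every vehicle array, where 11.5% of all tested probes were. Zbtb16 was also higher in every treated array, but was well above background on only 2 of 3 vehicle arrays. It was tested only because of its treated values, so it is not counted here. Per1, Sgk1 and Tsc22d3 overlapped. Fkbp5, a chaperone gene induced by the hormone's receptor, had 3.51, 3.86 and 4.12 in treated 1, 2 and 3, against 2.35, 1.40 and 1.87 in vehicle 1, 2 and 3, with no overlap (log2 fold change 1.96, SE 0.27, limma adjusted p = 0.080). Sgk1, a kinase that promotes sodium uptake and is also induced by the hormone, had 3.41, 3.54 and 2.20 in treated and 3.60, 2.52 and 2.06 in vehicle arrays. Sgk1, like Per1, was highest of all 6 arrays in vehicle 1 and lowest of all in vehicle 3, and Fkbp5 was not.

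Per2 had -1.34, -0.84 and 0.05 in treated 1, 2 and 3, against 0.08, -0.08 and -0.52 in vehicle 1, 2 and 3. Treated 1 and 2 were below every vehicle array and treated 3 lay between vehicle 1 and 2. Per2's log2 fold change was -0.54 (SE 0.37, limma adjusted p = 0.437), -0.92 without treated 3, -0.22 without treated 1 and -1.17 within slide 1.

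Per3, the third Period gene, had the smallest spread on its brightest probe, with -1.74, -1.95 and -1.72 in treated and -1.62, -1.60 and -1.69 in vehicle arrays. The treated values all lay below the vehicle values, with a difference of -0.17 (SE 0.09, limma adjusted p = 0.336) that was -0.094 without treated 2. The 5 Per3 probes disagreed, since only the brightest had a lower mean in treated arrays. The other tested probe had -4.12, -4.23 and -3.63 in treated and -4.35, -4.55 and -4.07 in vehicle arrays, a log2 fold change of 0.33, and the mean of both probes gave 0.08. On the 3 dimmest probes, which were not well above background on every array, treated 3 had the highest value of all 6 arrays. Their groups overlapped, with log2 fold changes of 0.72, 0.44 and 0.28.

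Cry1, the cryptochrome gene of the set, was lowest in the third replicate of both groups, as Bmal1 and Npas2 were and Clock was not. It had -0.77, -0.73 and -1.74 in treated 1, 2 and 3, against -0.01, 0.06 and -1.09 in vehicle 1, 2 and 3. Vehicle 3 lay below the other vehicle arrays and below treated 1 and 2, and treated 3 was the lowest of all. Cry1's log2 fold change was -0.73 (SE 0.41, limma adjusted p = 0.351), -0.40 without treated 3 and -1.10 without vehicle 3.

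Nr1d1, which encodes the repressor that acts on the RORE, varied most. It had -1.08, -0.60 and 0.35 in treated 1, 2 and 3, against -2.77, -2.02 and -0.70 in vehicle 1, 2 and 3. The 3 vehicle rats spanned a 4.20-fold range, the treated rats a 2.69-fold range and all 6 rats an 8.68-fold range. Vehicle 3 was above treated 1, so the groups overlapped. Nr1d1 averaged -0.44 ± 0.72 in treated and -1.83 ± 1.05 in vehicle arrays (SD, n = 3 each), which differ by 1.39 (SE 0.60, limma adjusted p = 0.260). It was 1.95 without vehicle 3, 0.92 without vehicle 1 and 0.75 within slide 1.

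The output factors, like Nr1d1, were highest in the third replicate of both groups. Among treated rats both were lowest in treated 2, whereas Nr1d1 was lowest in treated 1. Dbp, a D-box activator with one of the widest daily swings known in rodent tissues, had 3.56, 3.47 and 5.14 in treated 1, 2 and 3, against 3.06, 3.19 and 3.93 in vehicle 1, 2 and 3. Treated 3 was the highest, vehicle 3 came next, and the other 4 arrays lay between 3.06 and 3.56. Dbp's log2 fold change was 0.66 (SE 0.50, limma adjusted p = 0.478), and 0.12 without treated 3. All 4 Dbp probes put treated 3 first and vehicle 3 second, with log2 fold changes of 0.56 to 0.67.

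Tef, a D-box activator related to Dbp, had 2.88, 2.74 and 3.40 in treated 1, 2 and 3, against 1.96, 2.30 and 2.64 in vehicle 1, 2 and 3. Every treated value lay above every vehicle value, and the nearest pair was treated 2 and vehicle 3. Tef's log2 fold change was 0.71 (SE 0.24, limma adjusted p = 0.193), which was 0.51 without treated 3 and 0.58 within slide 1. The second Tef probe gave 0.77 and also did not overlap.

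**Figure D2:**
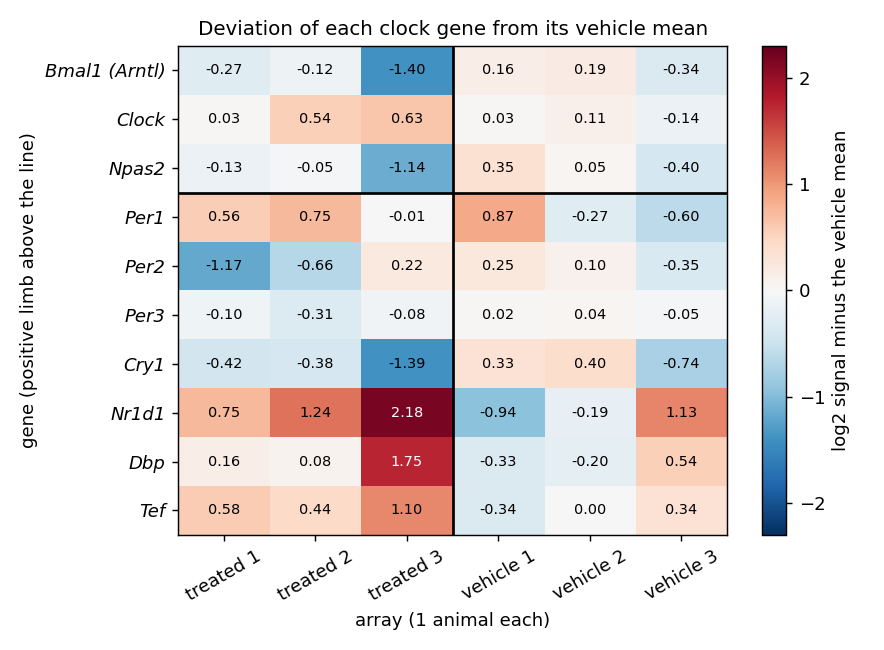
Log2 signal of each clock gene (rows, positive limb above the line) on each array (columns) minus that gene's mean over the 3 vehicle arrays, with red for above and blue for below. Treated 3 has the deepest blue for Bmal1 (-1.40), Npas2 (-1.14) and Cry1 (-1.39) and the deepest red for Nr1d1 (2.18), Dbp (1.75) and Tef, and vehicle 3 has the same signs in weaker form.

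The third replicate stood at one end of both groups for 7 of 10 genes, as the deviations from the vehicle means show. In both groups the third replicate had the highest value for Nr1d1, Dbp and Tef, which is 3 of 10 genes, where 10.3% of all tested probes had that pattern. In both groups it had the lowest value for Bmal1, Npas2, Per1 and Cry1, which is 4 of 10 genes, where 12.9% of all tested probes did. This description was chosen after the values were seen. Replicate numbers come from the titles, which do not say that they link a treated rat to a vehicle rat.

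The median of the negative limb and output genes minus the median of the positive limb genes, each gene centred on its vehicle mean, gave 1 value per array. It was 0.29, 0.12 and 1.36 in treated 1, 2 and 3, against -0.14, -0.11 and 0.29 in vehicle 1, 2 and 3. The groups overlapped, since vehicle 3 lay between treated 1 and 2. The mean was 0.59 ± 0.67 in treated and 0.01 ± 0.24 in vehicle arrays (SD, n = 3 each), a difference of 0.58 that became 0.20 without treated 3 and 0.28 within slide 1. No p is given, since 3 arrays against 3 cannot give an exact two-sided p below 0.10 and the genes were chosen by name with results known. The measure counts Cry1 and Per1 with the negative limb by their function, although both were lowest in the third replicate of each group.

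**Figure D3:**
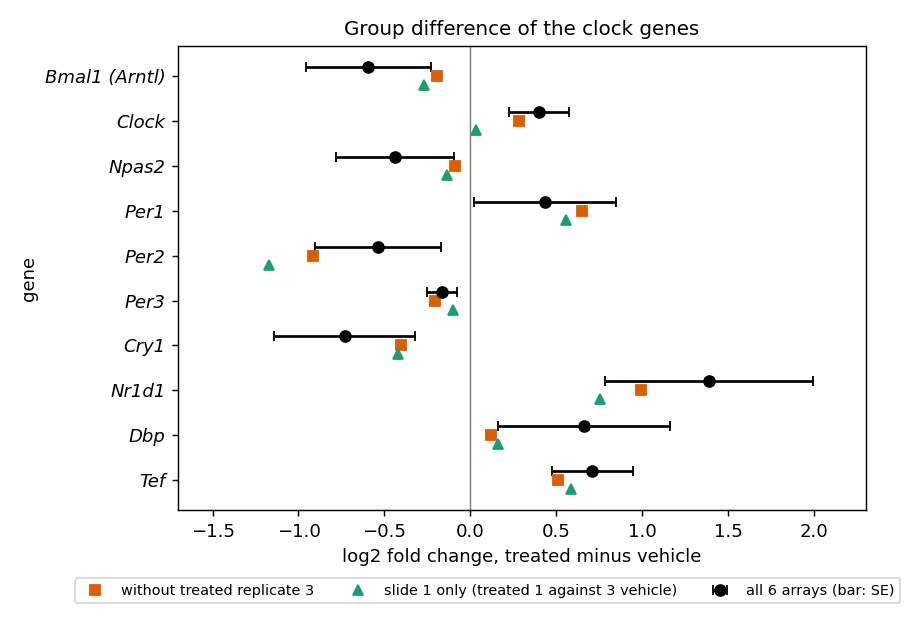
Log2 fold change of each clock gene, treated minus vehicle (horizontal axis), with all 6 arrays (black, bar: SE), without treated replicate 3 (orange) and within slide 1, which is treated 1 against 3 vehicle arrays (green). The direction is the same in all 3 settings for each gene, and the size of Bmal1 (-0.59), Npas2 (-0.44) and Dbp (0.66) shrinks to -0.19, -0.09 and 0.12 without treated 3.

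The spread between rats of 1 group was wide for these genes. The median within-group SD, pooled over both groups, was 0.54 for the 10 clock genes, against 0.15 over all tested probes, and 7 of the 10 lay above the 90th percentile of tested probes, which was 0.41. Nr1d1 had the widest SD, at 0.90, then Dbp at 0.74 and Per1 at 0.61. Clock, at 0.25, Tef, at 0.34, and Per3, at 0.09 on its brightest probe, were not above that percentile. The range over the 3 vehicle rats alone exceeded the size of the group difference for 6 genes, Npas2, Per1, Per2, Cry1, Nr1d1 and Dbp. The median size of the group difference was 0.57 for the 10 genes, against 0.16 over all tested probes, with signed medians of 0.12 and -0.03.

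**Figure D4:**
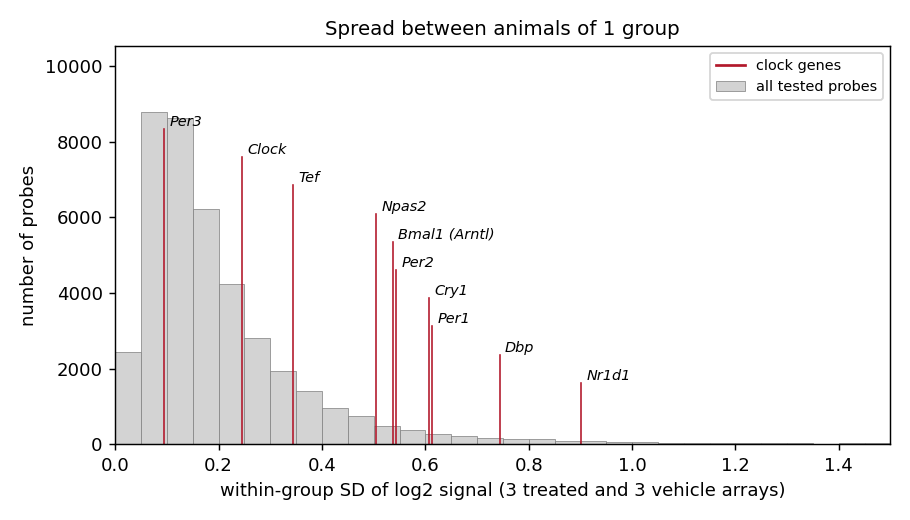
Number of tested probes (bars) by within-group SD of log2 signal over 3 treated and 3 vehicle arrays, with the clock genes as red lines whose height has no meaning. Per3 lies among the bulk of probes, and Nr1d1 (0.90), Dbp (0.74), Per1 (0.61), Cry1 (0.61), Per2 (0.54), Bmal1 (0.54) and Npas2 (0.50) lie in the right tail, above 0.41.

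Transcripts typical of liver also differed strongly between these rats, in another order. All 5 liver transcripts examined, Alb, Ttr, Apoa1, Serpina1 and Fgb, were well above background on all arrays, and none was at 0. Their summed signal, in multiples of the 75th percentile, was 5.37, 9.52 and 34.2 in treated 1, 2 and 3, against 22.8, 11.1 and 2.26 in vehicle 1, 2 and 3. Treated 3 was thus highest for the liver transcripts as for Nr1d1, Dbp and Tef, while vehicle 3 was lowest of all 6 for the liver transcripts and highest of the vehicle arrays for the same 3 clock genes. Immediate early genes, which respond within minutes to stimuli, summed to 16.3, 18.5 and 26.4 in treated 1, 2 and 3 and 17.2, 15.6 and 16.2 in vehicle 1, 2 and 3, with 8 of 8 well above background on all arrays. This sum was highest in treated 3, and vehicle 3 lay within the range of the other vehicle arrays. By gene, Junb (3.82), Ier2 (3.03) and Dusp1 (-1.37) were highest in treated 3. Fosb was lowest of all arrays there (-0.52), and Fos, Egr1, Atf3 and Nr4a1 were highest on other arrays. The part of the liver transcripts or the immediate early genes in the clock values was not tested.

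Of 21 names listed as further genes of the clock, 14 had a probe and 12 were tested. Chrono is a synonym of Ciart, so that gene was listed under both names. With limma 0 passed adjusted over all probes. At an unadjusted p under 0.05, 2 of 12 were higher in treated (8.37% of all tested probes were) and 3 of 12 lower (12.2%). The higher 2 were Usp2 and Noct, and the lower 3 Bmal2, Bhlhe40 and Nfil3. The groups did not overlap for 2 higher and 2 lower genes of the 12, where 11.5% and 17.0% of all tested probes lay apart in those directions. Replicate 3 was highest in both groups for 2 of the 12 (Cry2 and Nr1d2), where 10.3% of all tested probes had that pattern. It was lowest in both for 4 (Nfil3, Csnk1e, Btrc and Timeless), where 12.9% did. Cry2, Csnk1e, Btrc and Timeless varied little, with within-group SDs of 0.09 to 0.22, against 0.59 for Nr1d2 and 0.38 for Nfil3.

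Usp2, a deubiquitinase gene whose transcript cycles in rodent tissues, had 2.84, 3.00 and 2.99 in treated 1, 2 and 3, against 2.09, 1.84 and 1.78 in vehicle 1, 2 and 3. The groups were far apart and the rats within each close together, with a within-group SD of 0.13. Of the 10 clock genes, only Per3 had a smaller SD, at 0.09 on its brightest probe. Usp2's log2 fold change was 1.04 (SE 0.11, limma adjusted p = 0.064), and 0.94 within slide 1. Usp2 passed at a limma adjusted p of 0.032 with normexp background correction, 0.025 with a trended and robust variance and 0.015 without treated 1. Of 40643 tested probes, those fits called 96 higher and 40 lower, 109 and 47, and 1469 and 2838, where the main fit called 1 and 2. Under the other 14 of 17 alternatives Usp2 did not pass, with a limma adjusted p of up to 0.252 (without vehicle 2).

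Noct, which encodes the phosphatase nocturnin, had 1.12, -0.16 and 1.37 in treated 1, 2 and 3, against -0.27, -0.33 and -0.46 in vehicle 1, 2 and 3. Treated 1 and 3 were well above the vehicle arrays and treated 2 just above them (log2 fold change 1.13, SE 0.39, limma adjusted p = 0.202).

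Bmal2, listed as Arntl2 and a relative of Bmal1, had -3.47, -4.12 and -4.21 in treated and -2.90, -3.14 and -3.10 in vehicle arrays. The groups did not overlap, with treated 1 nearest to the vehicle arrays. Bmal2's log2 fold change was -0.89 (SE 0.21, limma adjusted p = 0.132) and -0.43 within slide 1. Without treated 1 it was -1.12 with a limma adjusted p of 0.011, in the fit that called 1469 probes higher and 2838 lower.

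Bhlhe40 (DEC1), a repressor that competes for E-boxes, had -1.72, -1.46 and -0.88 in treated and -0.79, -0.01 and -0.80 in vehicle arrays, with treated 3 just below the vehicle range (log2 fold change -0.82, SE 0.30, limma adjusted p = 0.213). Nfil3 (E4BP4), the repressor that competes with DBP and TEF for D-boxes, had -1.34, -0.96 and -1.72 in treated and -0.63, -0.37 and -1.12 in vehicle arrays. Like Bmal1 and Cry1, Nfil3 was lowest in the third replicate of both groups, and its groups overlapped (log2 fold change -0.64, SE 0.26, limma adjusted p = 0.242).

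Nr1d2, the paralog of Nr1d1 (REV-ERB beta), had -3.52, -3.21 and -2.36 in treated and -3.98, -4.23 and -3.12 in vehicle arrays. It was highest in the third replicate of both groups, as Nr1d1 was, and did not pass (log2 fold change 0.75, SE 0.40, limma adjusted p = 0.333). Without treated 3 the Nr1d2 difference was 0.41, and within slide 1 it was 0.25. Ciart, a repressor of the BMAL1 pair, was well above background on treated 3 alone, at -4.01, and was not tested. Cry2, the casein kinase genes Csnk1d and Csnk1e, Btrc and Timeless had log2 fold changes between -0.17 and 0.10, with limma adjusted p-values from 0.471 to 0.827.

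**Figure D5:**
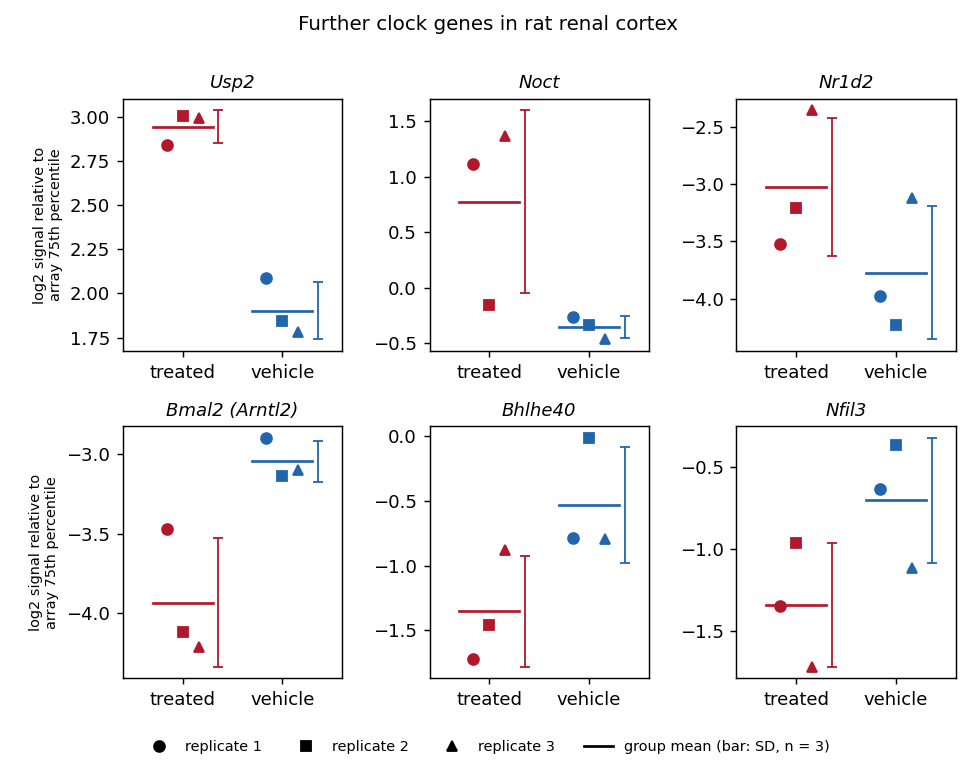
Log2 signal relative to the array 75th percentile (vertical axis) of 6 further clock genes in 3 treated and 3 vehicle rats, 1 point per animal, with the group mean and SD (n = 3). Usp2, Noct, Bmal2 and Bhlhe40 do not overlap between groups, and replicate 3 is the highest of both groups for Nr1d2 and the lowest of both for Nfil3.

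Genes known as outputs of the clock or as clock-linked genes of the nephron were not called. All 21 were tested, 0 passed adjusted over all probes with limma, and 4 were higher and 0 lower at an unadjusted p under 0.05, where 8.37% and 12.2% of all tested probes were. Their median log2 fold change was 0.32, against -0.03 over all tested probes. Ppara, which encodes a fatty acid receptor, had 1.08, 1.24 and 1.08 in treated and 0.16, 0.11 and 0.03 in vehicle arrays (log2 fold change 1.03, SE 0.08, limma adjusted p = 0.057). Por, which encodes the electron donor of P450 enzymes, had 3.49, 4.10 and 4.42 in treated and 2.99, 2.93 and 2.86 in vehicle arrays (log2 fold change 1.08, SE 0.23, limma adjusted p = 0.121). Neither overlapped between groups, and the treated rats lay closer together for Ppara than for Por. For Edn1, which encodes endothelin 1, the log2 fold change was 0.68 (SE 0.29, limma adjusted p = 0.255). Scnn1a, the sodium channel subunit controlled by Per1 in mouse collecting duct, had 0.14, 0.45 and 0.67 in treated and 0.25, -0.06 and -0.02 in vehicle arrays (log2 fold change 0.37, SE 0.16, limma adjusted p = 0.264).

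Genes with the most similar profile were sought among 11685 genes well above background on all arrays, for the 8 clock genes whose values spanned over 1 log2 unit. Likeness is the mean absolute difference between profiles centred over the 6 arrays, and it is given as a description. Bmal1 was nearest to Ccnb2, a mitotic cyclin, at 0.02, then Kif20a at 0.08 and Troap at 0.09. Npas2 was nearest to Gen1 (0.08), Ccnb2 (0.11) and Ccnb1 (0.11), and Cry1 to Ube2c (0.13), Ndc80 (0.14) and Knstrn (0.15). Ccnb2 had -3.12, -2.94 and -4.22 in treated and -2.68, -2.66 and -3.25 in vehicle arrays, and so was also lowest in the third replicate of both groups.

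Per1 was nearest to Crtac1 (0.08), then Sgk1 (0.16) and Cct8l2 (0.16), and Per2 to Zmynd15 (0.14), Pclo (0.18) and Gabrp (0.19). Nr1d1 was nearest to Mogat2 (0.22), Asrgl1 (0.23) and C10h16orf89 (0.31). Dbp was nearest to Kng1 (0.20), Cspg4 (0.20) and Cst6 (0.22), and Tef to Scel (0.07), Gamt (0.08) and Lgals1 (0.08). No clock gene of the set was among the 3 nearest of another.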

How the data were processed

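Renal cortex RNA of 6 rats was labelled with Cy3 and hybridised to 1-colour Agilent arrays. Per the file headers, the authors extracted linear spot intensity values by Agilent Feature Extraction (version 10.7.1.1), background subtraction included. The deposited series table holds intensity values close to the same signal divided by the array's 75th percentile (log2 correlation at least 0.999999 on each array). Its column medians were 0.109, 0.105 and 0.105 for treated 1 to 3 and 0.110, 0.108 and 0.109 for vehicle 1 to 3. How it was scaled is not given in the sources used here.

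Values analysed were log2 of the processed intensity minus each array's 75th percentile. Controls aside, there were 61537 probes, of which 28206 matched 1 RefSeq symbol and none several. No spot was saturated, and 11 probes with an outlier flag were dropped. Tests took probes well above background on all 3 arrays of a group, 40643 in all. limma 3.58.1 in R 4.3.3 (lmFit, eBayes, two-sided, Benjamini-Hochberg, threshold 0.05) compared treated with vehicle, and was tested on simulated data.

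Genes and lists were chosen with earlier results of these data known. The text names all 10 clock genes, the further clock genes with an unadjusted p under 0.05 or groups apart, the 6 listed outputs with the smallest p, and the 3 nearest profiles of each gene spanning over 1. Nr1d2, Ciart, Fkbp5 and Sgk1 were named after their values were seen. A few genes of the lists are counted but not reported here by name. Alternatives covered background correction, normalization, filters, slide and replicate blocks, the variance model, the series table, all probes of a gene and each array left out. The scanner files hold no mean spot signal, so normexp (offset 50) used the median.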

Additional observations from a re-analysis of the deposited data

How the results depend on the processing

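Of 170 clock gene values under 17 alternatives, 169 kept their direction. The filters, the replicate block and the variance model cannot change a log2 fold change, so their agreement on direction was fixed in advance. Of the 170, 1 had a limma adjusted p under 0.05, Clock without treated 1, which made 1 of 10 genes called. That fit called 1469 probes higher and 2838 lower, of 40643 tested. Per3 turned to 0.0840 with the mean over its probes. The counts at an unadjusted p under 0.05 were 2 with normexp (20.6% of all tested probes) and 0 with slide as a random block (14.7%). They were 0 to 3 with an array left out, among them 0 without vehicle 2 (12.2%), 2 without treated 1 (31.9%) and 3 without vehicle 3 (16.2%). The difference between limbs was 0.20 to 0.85 with an array left out. Probes called higher and lower numbered 96 and 40 with normexp, 12 and 5 with median centring, 109 and 47 with a trended and robust variance, 0 and 1 without a filter or with slide as a fixed block, and 0 and 0 when a probe had to be above background on every array. With an array left out they ranged from 0 to 1469 and from 0 to 2838, the highest without treated 1. Slide 2 holds treated arrays only, so slide and treatment cannot be told apart for treated 2 and 3.

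With the replicate number as a block, 6 of the 10 clock genes had an unadjusted p under 0.05, where 17.8% of all tested probes did, and 0 probes were called in either direction. The main fit used no pairing, since the design states groups of biological replicates. Deviations of same-numbered arrays correlated at -0.21, 0.01 and -0.16. Of the treated arrays, 0 of 3 correlated best with the vehicle array of their own number. These correlations run over all tested probes, so they cannot tell whether a small set such as the clock genes shares something by number. The titles do not say what the numbers share.

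Small differences of further clock genes changed sign, and the cause was not tested. With slide as a fixed block Cry2 was -0.0244, Csnk1d -0.0328, Csnk1e 0.0484 and Timeless 0.19, and with slide as a random block Timeless was 0.0348. With all probes averaged Csnk1e was 0.155 and Btrc -0.0597. With an array left out Btrc ranged from -0.0119 to 0.0712, Cry2 from -0.0338 to 0.159 and Timeless from -0.224 to 0.0487.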
